A study of Homo sapiens with 18 samples.

Results

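Insulin and insulin-like growth factor (IGF) signalling was described through 10 transcripts. They were the ligand IGF2, the receptors INSR, IGF1R and IGF2R, the adaptors IRS1, IRS2 and GRB10, and the secreted IGF binding proteins IGFBP2, IGFBP4 and IGFBP6. The genes were chosen by name as parts of the pathway upstream of phosphatidylinositol 3-kinase (PI3K). The rule itself uses no measured value, but the choice was made with earlier results of these data known. All 10 were found among the 61806 genes listed, and all 10 were among the 18537 that reached 1 TPM (the unit of the deposited values, a length-scaled share of the library) in at least 3 of the 18 libraries. The libraries came from poly(A) RNA of LoVo and DLD-1, both of them lines of human colorectal cancer cells, with 3 replicates in each of 6 groups. In each line the groups were cells overexpressing LIN28B and given alpelisib at 5 µM, cells overexpressing LIN28B without alpelisib, and cells with the empty vector (EV). All cells were expanded in DMEM with 10% fetal bovine serum. How long alpelisib was applied, what the untreated cells received, how LIN28B was introduced and whether the cells were clones or pools are not given in the sources used here. The labels do not say that replicates came from separate cultures, so each p-value measures only how these samples varied, which may be technical variation.

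Insulin and the IGFs bind receptor tyrosine kinases of 1 family, INSR and IGF1R, which phosphorylate the adaptors IRS1 and IRS2 and thereby recruit PI3K. IGF2R binds IGF2 and carries it to the lysosome without signalling as a kinase, GRB10 binds the activated receptors and damps them, and the IGF binding proteins hold IGFs outside the cell. The pathway is known for feedback, in which the activity of PI3K, AKT and mTORC1 lowers the supply of receptors and of IRS proteins, and IGF2 and IRS2 are known to be overexpressed in subsets of colorectal cancers. Alpelisib inhibits the alpha catalytic subunit of PI3K, and LIN28B binds RNA and keeps let-7 microRNAs from maturing.

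The let-7 microRNAs are shown because LIN28B acts on them and because let-7 has been reported to target transcripts of this pathway. Their mature sequences, credited to RefSeq (GRCh38.p14), share the same seed, bases 2 to 8, which is in capitals.
let-7a-5p: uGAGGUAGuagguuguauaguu
let-7g-5p: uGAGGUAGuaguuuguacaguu
miR-98-5p: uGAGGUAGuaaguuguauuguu
The reverse complement of the seed, CTACCTC on the transcript strand, was searched in the longest annotated 3′ UTR of each gene (GENCODE 29). It occurred in 4 of the 10 genes, with 1 match in INSR, 2 in IGF1R, 1 in IGF2R and 1 in IRS2. It was in none of the windows of IRS1, IGF2, GRB10, IGFBP2, IGFBP4 and IGFBP6. The matches that are followed by A, which lies opposite the first base of let-7, are printed here with the seed match in capitals.
INSR, chr19:7114649-7114678, minus strand: ttttttcagcacagtCTACCTCagtgtatt
IGF1R, chr15:98960046-98960075, plus strand: cccccaaacatttatCTACCTCactcttat
IRS2, chr13:109755837-109755866, minus strand: aaaacgaccacagtcCTACCTCagttcaag
Of all 19652 such UTRs, 9.317% held the letters, and among UTRs within 1.25-fold of the same length the share was 24.15% for INSR, 33.133% for IGF1R, 31.106% for IGF2R and 19.377% for IRS2. A match is a string of letters and not a measured site, and mature let-7 was not measured in these poly(A) libraries.

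The libraries were checked before the values were compared. LIN28B measured 146, 160 and 155 TPM with alpelisib, 706, 682 and 674 TPM in untreated LIN28B and 4.91, 3.66 and 3.87 TPM in EV under the LoVo label. In DLD-1 it measured 150, 139 and 141 TPM with alpelisib, 493, 483 and 408 TPM in untreated LIN28B and 2.74, 1.17 and 1.38 TPM in EV. The LIN28B transcript was thus lower in every alpelisib library than in every untreated LIN28B library of its line, and its part in the results with alpelisib was not tested. The libraries labelled LoVo LIN28B differed from LoVo EV in 56.8% of genes and from DLD-1 LIN28B in 14.0%, while LoVo EV differed from DLD-1 EV in 55.5% (limma, adjusted p under 0.05). The LoVo-labelled LIN28B libraries were thus closer to DLD-1 than to LoVo EV, and each direction between LoVo EV and another LoVo-labelled group depends on a label of line that these data could not check. Mitochondrial transcripts took 24.0, 23.1 and 14.5% of the TPM in LoVo EV and 7.24 to 15.8% elsewhere. All 8 epithelial markers were above 1 TPM in every library, and their sum was 13184 to 15202 TPM with alpelisib, 10378 to 10983 TPM in LIN28B and 7031 to 7992 TPM in EV under the LoVo label. In DLD-1 the sum was 9988 to 10627 TPM with alpelisib, 9023 to 9780 TPM in LIN28B and 12208 to 12423 TPM in EV. Among markers of other cells, the sum of 6 fibroblast markers reached 15.0 TPM and of 3 endothelial markers 1.53 TPM at most, with COL1A2 at 0 and PECAM1, CDH5 and the leukocyte markers PTPRC and CD3E below 1 TPM throughout. The monocyte marker CD14 reached 2.09 TPM and averaged 0.299 TPM with alpelisib, 0.481 TPM in LIN28B and 1.50 TPM in EV under the LoVo label, and 1.45 TPM with alpelisib, 1.53 TPM in LIN28B and 1.06 TPM in EV in DLD-1. Their part in the results was not tested.

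**Figure D1:**
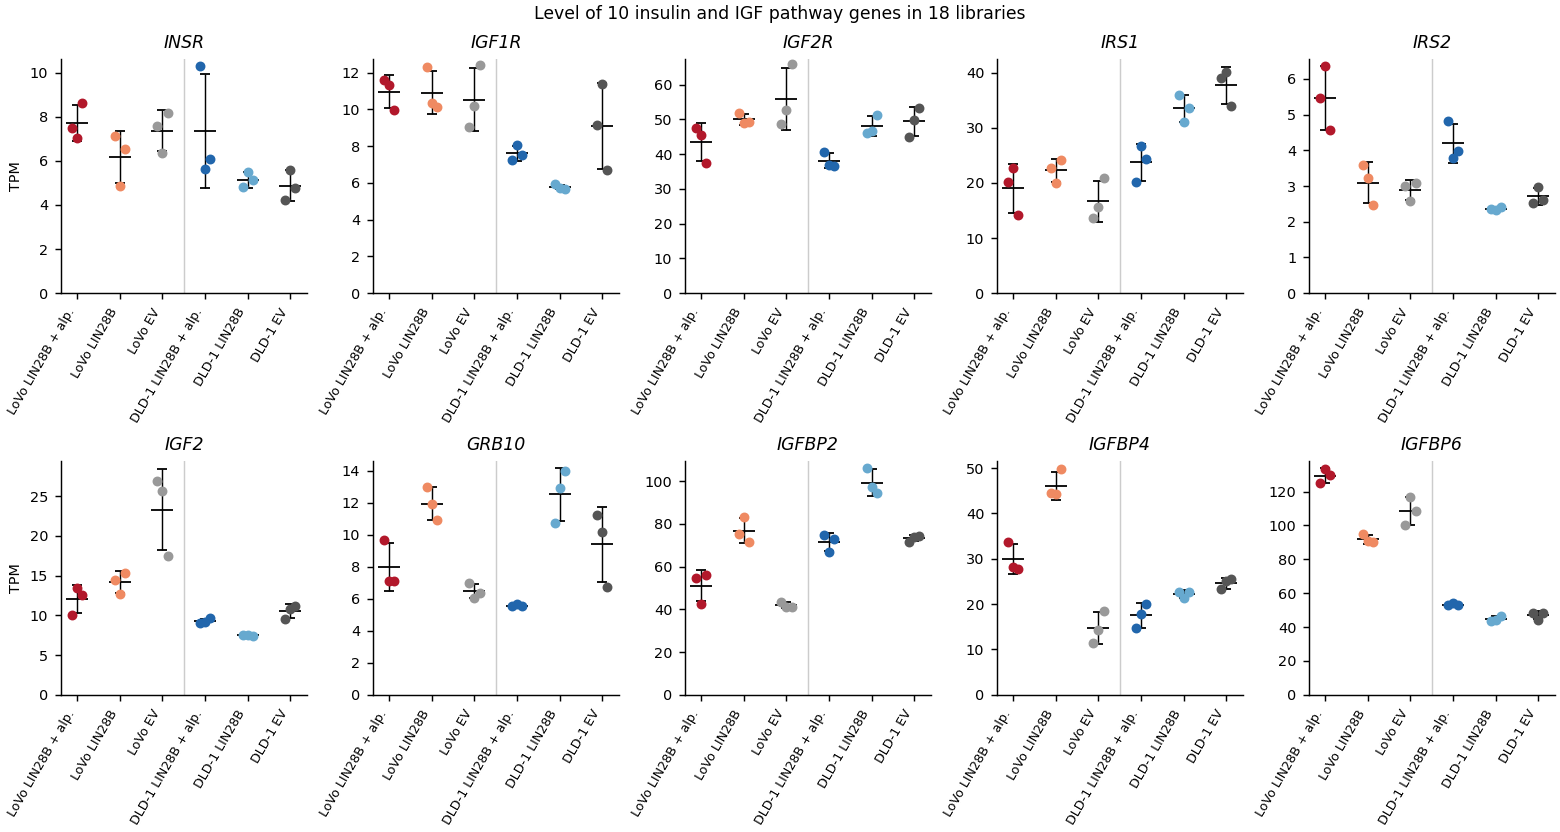
Each panel gives 1 gene, with TPM on a linear axis from 0 and the 6 groups on the horizontal axis (alp., alpelisib). Points are single libraries, and the bar and whiskers are the mean and SD of 3. IRS2 was at 3.79 TPM or more in the 6 alpelisib libraries and at 3.60 TPM or less in the other 12, and IGFBP6 was at 90.0 TPM or more in all LoVo-labelled libraries and at 54.1 TPM or less in DLD-1.

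Alpelisib versus untreated LIN28B cells compared these genes with and without the inhibitor. No EV cells were given alpelisib, so the drug and the lower LIN28B transcript of the treated libraries cannot be told apart here. IRS2, the adaptor that links INSR and IGF1R to PI3K, rose in both sets of cells, 1.76-fold under the LoVo label and 1.78-fold in DLD-1. GRB10, the receptor-damping adaptor, fell to 7.96 ± 1.50 TPM, against 11.9 ± 1.03 TPM untreated, under the LoVo label and to 5.57 ± 0.0723 TPM, against 12.5 ± 1.66 TPM untreated, in DLD-1 (SD, n = 3). Among the binding proteins IGFBP2 fell and IGFBP6 rose in both sets. No receptor passed the test under the LoVo label, and in DLD-1 only IGF2R did. In bulk libraries fewer cells of a type and less RNA per cell cannot be told apart. Where 2 values follow a gene in brackets, they are the log2 change and its adjusted p by limma.

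The adaptors were read library by library. IRS2 (GRCh38 chr13:109752698-109786568, minus strand) measured 5.47, 6.35 and 4.56 TPM with alpelisib and 3.60, 3.22 and 2.46 TPM untreated under the LoVo label. In DLD-1 it measured 4.83, 3.79 and 3.98 TPM with alpelisib and 2.35, 2.32 and 2.43 TPM untreated. Every treated library lay above every untreated one in both sets, although IRS2 had the lowest mean TPM of the 10 genes in each of the 6 groups. The log2 change was 0.66 ± 0.14 (SE; limma, adjusted p = 0.00175) under the LoVo label and 0.62 ± 0.14 in DLD-1 (adjusted p = 0.00401). IRS1 (chr2:226731317-226799759, minus strand), the more abundant IRS adaptor in these cells, measured 20.2, 22.7 and 14.1 TPM with alpelisib and 22.7, 19.9 and 24.2 TPM untreated under the LoVo label, where the groups overlapped. In DLD-1 it measured 20.1, 26.7 and 24.3 TPM with alpelisib and 35.9, 30.9 and 33.6 TPM untreated, and every treated library was below every untreated one. It fell in DLD-1 (log2 change -0.49 ± 0.17, limma, adjusted p = 0.0356) and had a log2 change of -0.24 under the LoVo label (adjusted p = 0.281). The ratio of IRS1 to IRS2, both in TPM, was 3.69, 3.57 and 3.10 with alpelisib and 6.31, 6.18 and 9.81 untreated under the LoVo label. In DLD-1 it was 4.17, 7.03 and 6.11 with alpelisib and 15.3, 13.3 and 13.9 untreated. The ratio was lower in each treated library than in each untreated library of the same set, and IRS1 remained the higher of the pair in all of them.

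GRB10 (chr7:50590063-50793462, minus strand) measured 9.69, 7.10 and 7.09 TPM with alpelisib and 13.0, 11.9 and 10.9 TPM untreated under the LoVo label. In DLD-1 it measured 5.54, 5.65 and 5.52 TPM with alpelisib and 10.7, 12.9 and 14.0 TPM untreated, so the 3 treated libraries lay close together and far below the untreated ones. The log2 change was -0.54 ± 0.16 (limma, adjusted p = 0.0131) under the LoVo label and -1.04 ± 0.16 in DLD-1 (adjusted p = 0.000246). The groups did not overlap in either set. The call under the LoVo label ended without alpelisib replicate 2 or 3 (adjusted p = 0.0526 and 0.0565) or untreated replicate 1 (adjusted p = 0.0537).

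The binding proteins moved in opposite directions. IGFBP2 (chr2:216632828-216664436, plus strand) measured 54.8, 42.7 and 55.9 TPM with alpelisib and 75.4, 83.2 and 71.7 TPM untreated under the LoVo label, and 74.9, 66.9 and 73.1 TPM with alpelisib and 106, 97.4 and 94.3 TPM untreated in DLD-1. IGFBP6 (chr12:53097436-53102345, plus strand), which binds IGF2 in preference to IGF1, measured 125, 134 and 129.7 TPM with alpelisib and 94.9, 90.6 and 90.0 TPM untreated under the LoVo label, and 53.0, 54.1 and 52.8 TPM with alpelisib and 43.7, 44.3 and 46.7 TPM untreated in DLD-1. The treated libraries of IGFBP2 were all below and those of IGFBP6 all above the untreated ones in both sets. The log2 change of IGFBP2 was -0.58 ± 0.095 (limma, adjusted p = 0.00017) under the LoVo label and -0.47 ± 0.095 in DLD-1 (adjusted p = 0.00181). That of IGFBP6 was 0.49 ± 0.068 (limma, adjusted p = 4.46e-05) under the LoVo label and 0.24 ± 0.068 in DLD-1 (adjusted p = 0.0134). The last call ended without DLD-1 LIN28B replicate 1 (log2 0.22, adjusted p = 0.0539). IGFBP4 (chr17:40443461-40457731, plus strand), which inhibits IGF action and is cleaved by the protease PAPPA, measured 33.7, 28.3 and 27.8 TPM with alpelisib and 44.4, 44.3 and 49.7 TPM untreated under the LoVo label, and 14.6, 17.8 and 20.1 TPM with alpelisib and 22.8, 21.3 and 22.7 TPM untreated in DLD-1. It fell under the LoVo label (-0.61 ± 0.14 log2, limma, adjusted p = 0.00273), and in DLD-1 its change of -0.34 ± 0.14 had an adjusted p of 0.0776 without overlap between the groups. Without DLD-1 alpelisib replicate 3, the highest of the treated libraries, the change was -0.44 (adjusted p = 0.0421).

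Among the receptors and the ligand, IGF2R in DLD-1 was the only one called. IGF2R (chr6:159969099-160113507, plus strand) measured 47.6, 45.4 and 37.4 TPM with alpelisib and 51.9, 48.9 and 49.3 TPM untreated under the LoVo label, and 40.6, 37.0 and 36.7 TPM with alpelisib and 46.1, 46.8 and 51.3 TPM untreated in DLD-1. No treated library reached an untreated one, and the log2 change was -0.20 ± 0.11 (limma, adjusted p = 0.159) under the LoVo label and -0.33 ± 0.11 in DLD-1 (adjusted p = 0.0351). INSR (chr19:7112255-7294034, minus strand) measured 7.48, 7.05 and 8.62 TPM with alpelisib and 7.12, 4.84 and 6.54 TPM untreated under the LoVo label, and 10.3, 5.63 and 6.10 TPM with alpelisib and 4.80, 5.51 and 5.12 TPM untreated in DLD-1. In DLD-1 alpelisib replicate 1 stood above the other two, and the log2 change of 0.40 ± 0.18 (limma, adjusted p = 0.111) was 0.16 without it (adjusted p = 0.517). Under the LoVo label the INSR change was 0.29 ± 0.18 (adjusted p = 0.226) and the groups overlapped. IGF1R (chr15:98648539-98964530, plus strand) measured 11.6, 11.3 and 9.95 TPM with alpelisib and 12.3, 10.3 and 10.1 TPM untreated under the LoVo label, a log2 change of 0.01 with a 95% interval of -0.31 to 0.33. In DLD-1 it measured 7.25, 8.05 and 7.54 TPM with alpelisib and 5.91, 5.74 and 5.69 TPM untreated, which did not overlap, with a log2 change of 0.34 ± 0.15 (limma, adjusted p = 0.0947). IGF2 (chr11:2129112-2149603, minus strand) measured 10.0, 13.5 and 12.6 TPM with alpelisib and 14.5, 12.7 and 15.4 TPM untreated under the LoVo label, and 9.07, 9.22 and 9.62 TPM with alpelisib and 7.51, 7.58 and 7.34 TPM untreated in DLD-1. The groups overlapped under the LoVo label (-0.23 log2, adjusted p = 0.225) and not in DLD-1, where the treated libraries were higher (0.28 log2, adjusted p = 0.147). Exons of IGF2 overlap those of the antisense gene IGF2-AS, listed at 0 to 2.155 TPM. On the same strand they overlap those of AC132217.1, at 0 to 6.786 TPM, and of INS-IGF2, at 0 TPM in every library. How reads shared by overlapping genes were counted and whether counting used strand are not given in the sources used here. Reads of these genes may therefore not be separated.

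**Figure D2:**
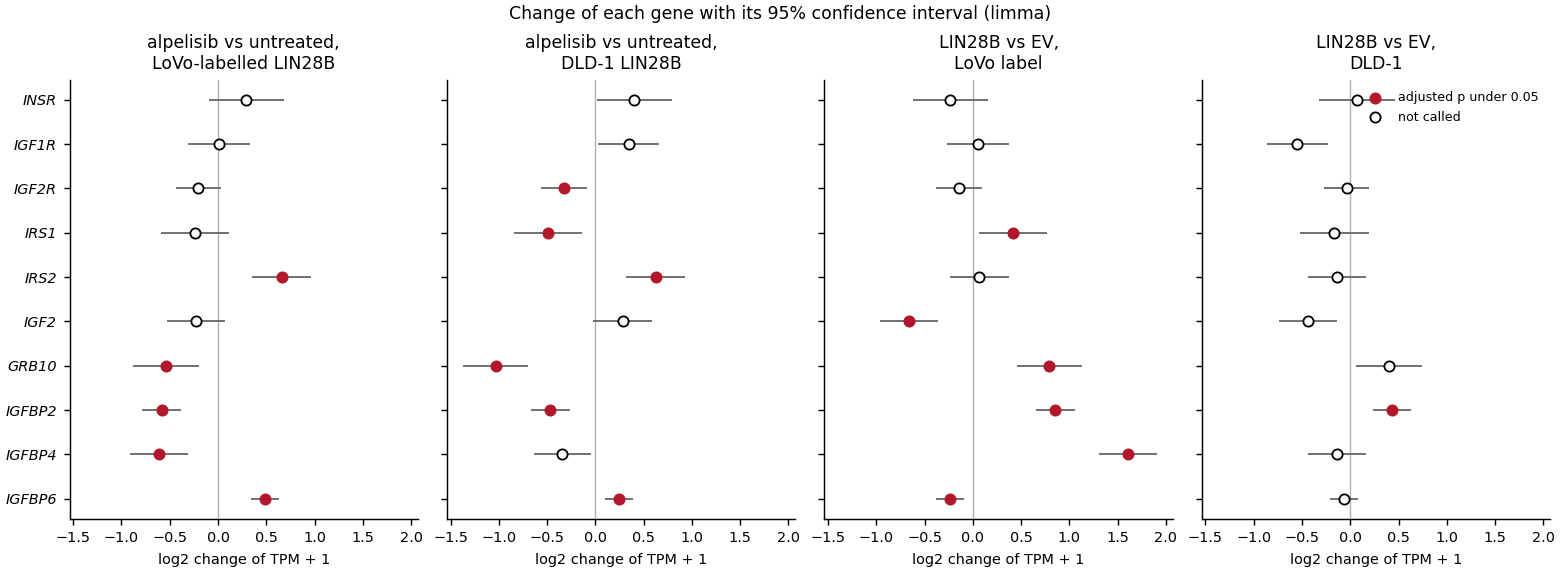
Log2 change of TPM + 1 for each gene (points) with its 95% confidence interval (lines) by limma, in the comparisons of alpelisib with untreated cells and of LIN28B with EV in both sets. Filled points passed the test, and IRS2, GRB10, IGFBP2 and IGFBP6 were filled in both alpelisib panels, with IRS2 at 0.66 under the LoVo label and 0.62 in DLD-1 and GRB10 at -0.54 under the LoVo label and -1.04 in DLD-1.

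With alpelisib, 5 of the 10 genes were called under the LoVo label, 2 higher and 3 lower, beside 39.7% of all genes, and 6 of 10 in DLD-1, 2 higher and 4 lower, beside 31.0% of all genes (3 of 10 without DLD-1 LIN28B replicate 1). The 4 genes IRS2, GRB10, IGFBP2 and IGFBP6 were called in the same direction in both sets, 4 of 10 beside 23.3% of all genes tested. They were 4 of the 5 called genes under the LoVo label, where the share over all called genes was 58.7%, and 4 of 6 in DLD-1, where it was 75.2%. The line of the LoVo-labelled LIN28B libraries could not be checked, so a call shared by both sets may not be one shared by different lines. The groups did not overlap for 6 of 10 genes under the LoVo label, beside 50.1% of all genes, and for all 10 in DLD-1, beside 47.2%. With median-of-ratios scaling the log2 changes of all genes shifted by a median of 0.106 under the LoVo label and 0.134 in DLD-1. Under it the 4 shared calls kept their direction, with log2 changes under the LoVo label of 0.74 for IRS2, -0.43 for GRB10, -0.47 for IGFBP2 and 0.61 for IGFBP6. In DLD-1 they were 0.73 for IRS2, -0.90 for GRB10, -0.32 for IGFBP2 and 0.39 for IGFBP6. In DLD-1 the scaling ended the calls of IGF2R (adjusted p = 0.169) and IRS1 (0.0805) and called INSR (0.53 log2, 0.0424) and IGF1R (0.47 log2, 0.0118) higher, so the split of the called genes was 4 higher and 2 lower. The scaled split over all genes was 3588 higher and 3746 lower under the LoVo label, beside 2807 and 4557 as deposited, and 2620 and 2886 in DLD-1, beside 1677 and 4067. The calls of IGF2R and IRS1 in DLD-1 also ended when single libraries were left out. For IGF2R these were alpelisib replicate 2 or 3 or any 1 untreated replicate (adjusted p = 0.0578 to 0.12), and for IRS1 they were alpelisib replicate 1 or 3 or untreated replicate 1 or 3 (adjusted p = 0.0598 to 0.151).

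The difference of the alpelisib effect between the 2 sets of cells was tested directly, as the effect under the LoVo label minus that in DLD-1. None of the 10 genes was called by limma, beside 0.847% of all genes, and 3 had an unadjusted p under 0.05, as did 2307 of all genes. The difference was 0.04 log2 for IRS2, with a 95% interval of -0.39 to 0.46, and -0.12 for IGFBP2, with an interval of -0.40 to 0.17. Those 3 were GRB10, IGF2 and IGFBP6, with differences of 0.50 (0.02 to 0.97), -0.51 (-0.93 to -0.08) and 0.25 (0.04 to 0.45), with adjusted p of 0.376, 0.291 and 0.281. These intervals are wide beside the changes themselves.

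**Figure D3:**
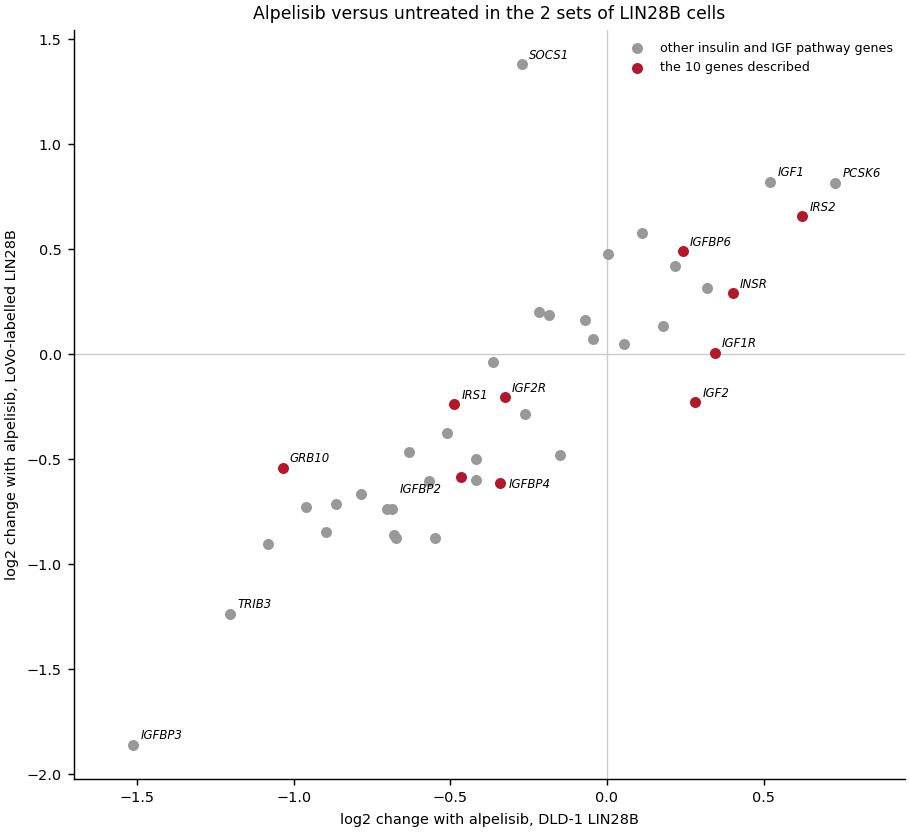
Log2 change of TPM + 1 with alpelisib in DLD-1 LIN28B (horizontal) against LoVo-labelled LIN28B (vertical), which share no library, for the 10 genes (red) and 33 other insulin and IGF pathway genes (grey). IRS2, IGFBP6 and INSR lie in the upper right, IGF2 in the lower right, and IGF1R at 0.01 under the LoVo label and 0.34 in DLD-1. GRB10, IGFBP2, IGFBP4, IRS1 and IGF2R lie in the lower left, with IGFBP3 farthest out, at -1.86 under the LoVo label and -1.51 in DLD-1.

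IRS2 and IGFBP6, the genes that rose with alpelisib in both sets, are shown with the stretch of promoter that held a searched motif, because FOXO factors, which PI3K and AKT keep out of the nucleus, are known to act through such letters in other genes. Promoters were taken from RefSeq (GRCh38.p14) as 250 bases before to 50 bases after a start. All but IGF2 were matched, 9 of the 10 genes, with 15 promoters. The motifs searched were GTAAACA for FOXO factors, CAAAACA for the insulin response sequence and CACGTG for E-boxes, on both strands, and no match of one overlapped a match of another in these 2 stretches.
IRS2, 250 bases before the start, chr13:109786584-109786833, minus strand: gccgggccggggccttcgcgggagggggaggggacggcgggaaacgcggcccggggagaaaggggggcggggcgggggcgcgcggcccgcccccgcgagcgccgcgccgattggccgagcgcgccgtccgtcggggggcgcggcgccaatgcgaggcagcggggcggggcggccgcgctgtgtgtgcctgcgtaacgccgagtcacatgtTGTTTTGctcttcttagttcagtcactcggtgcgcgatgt
IGFBP6, chr12:53097469-53097498, plus strand: gcaatttgggaaGTAAACAgaaactggaaa
The capitals in IRS2 mark TGTTTTG, the insulin response letters on the other strand, 40 bases before the start, and those in IGFBP6 mark GTAAACA, 186 bases before the start. Of 35116 promoters, 4.915% held the insulin response letters and 3.423% the FOXO letters. Each occurred in 1 of the 15 promoters here, those printed. CACGTG, held by 7.256% of promoters, occurred in IGF2R and IRS1. A match describes these letters and not a bound site, and genes without one may hold sites outside this window. A part of FOXO factors in these changes was not tested.

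The effect of LIN28B overexpression on these genes in DLD-1 was read from LIN28B against EV, and 1 of the 10 genes passed the test. IGFBP2, the most abundant binding protein in DLD-1, rose 1.36-fold to 99.4 ± 6.25 TPM in LIN28B, against 73.3 ± 1.45 TPM in EV (SD, n = 3). IGFBP2 measured 106, 97.4 and 94.3 TPM in LIN28B and 71.7, 74.0 and 74.3 TPM in EV, without overlap. The log2 change was 0.43 ± 0.095 (limma, adjusted p = 0.0255). The call ended whichever of the 6 libraries was left out (limma, adjusted p = 0.0534 to 0.119, log2 change 0.38 to 0.47). The count of 1 of 10 stands beside 2.53% of all genes.

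The other genes gave values without a call in DLD-1. IGF1R measured 5.91, 5.74 and 5.69 TPM in LIN28B and 9.17, 11.4 and 6.73 TPM in EV, with every LIN28B library below every EV library and a wide spread in EV. Its log2 change was -0.55 ± 0.15 (limma, adjusted p = 0.0672), and it was called without EV replicate 3, the lowest of that group (-0.73, adjusted p = 0.0208), and under median-of-ratios scaling (-0.58, adjusted p = 0.0215). IGF2 measured 7.51, 7.58 and 7.34 TPM in LIN28B and 9.55, 10.8 and 11.2 TPM in EV, also without overlap (-0.44 ± 0.14 log2, adjusted p = 0.129). It was called lower in a fit of only the 9 DLD-1 libraries, an alternative chosen after seeing the data (limma, adjusted p = 0.0422). GRB10 measured 10.7, 12.9 and 14.0 TPM in LIN28B and 11.2, 10.2 and 6.74 TPM in EV, where EV replicate 3 was far below the other two (0.40 ± 0.16 log2, adjusted p = 0.238). INSR, IGF2R, IRS1, IRS2, IGFBP4 and IGFBP6 had log2 changes between -0.16 and 0.07 with adjusted p of 0.748 or more. The 4 genes with a let-7 seed match in the 3′ UTR had changes of 0.07 (INSR), -0.55 (IGF1R), -0.04 (IGF2R) and -0.14 (IRS2). None was called higher, but only 225 of all 18537 genes tested were, and a part of let-7 was not tested.

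The same contrast under the LoVo label set libraries whose line could not be checked against LoVo EV. IGFBP4 rose 3.14-fold, IGFBP2 1.83-fold and GRB10 1.84-fold, while IGF2 fell to 14.2 ± 1.34 TPM in LIN28B, against 23.3 ± 5.11 TPM in EV (SD, n = 3). IGFBP4 measured 44.4, 44.3 and 49.7 TPM in LIN28B and 11.4, 14.2 and 18.5 TPM in EV. The lowest LIN28B library was far above the highest EV library, and the log2 change was 1.61 ± 0.14 (limma, adjusted p = 8.38e-08). IGFBP2 measured 75.4, 83.2 and 71.7 TPM in LIN28B and 43.6, 40.9 and 41.3 TPM in EV (0.86 ± 0.095 log2, adjusted p = 1.12e-06). GRB10 measured 13.0, 11.9 and 10.9 TPM in LIN28B and 6.97, 6.07 and 6.38 TPM in EV (0.79 ± 0.16 log2, adjusted p = 0.000458). Neither gene overlapped between its groups. IGFBP6 fell to 94.9, 90.6 and 90.0 TPM in LIN28B, against 100.3, 117 and 108 TPM in EV (-0.24 ± 0.068 log2, adjusted p = 0.00701).

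IGF2 measured 14.5, 12.7 and 15.4 TPM in LIN28B and 26.9, 25.6 and 17.5 TPM in EV, with the 2 EV libraries of high mitochondrial share above the third. Its log2 change was -0.66 ± 0.14 (limma, adjusted p = 0.000821), and without EV replicates 1 and 2 together, an alternative chosen after seeing the data, it was -0.29 (adjusted p = 0.17). IRS1 measured 22.7, 19.9 and 24.2 TPM in LIN28B and 13.6, 15.6 and 20.8 TPM in EV, with overlap, and was called higher (0.41 ± 0.17 log2, adjusted p = 0.0436). That call ended without LIN28B replicate 1 or 3 or EV replicate 1 or 2 (adjusted p = 0.0963 to 0.194). INSR, IGF1R, IGF2R and IRS2, the 4 genes with a let-7 seed match, had log2 changes of -0.23, 0.05, -0.14 and 0.07. They were not called, beside 56.8% of all genes called.

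In all, 6 of the 10 genes were called under the LoVo label, 4 higher and 2 lower, beside 56.8% of all genes. Median-of-ratios scaling shifted the log2 changes of all genes by a median of -0.323. It moved the split of called genes over the whole table to 4882 higher and 5083 lower, beside 7463 and 3067 as deposited. Relative to that shift, 3 of the 10 genes were higher and 4 lower. IGFBP4 (1.26), IGFBP2 (0.50) and GRB10 (0.47) stayed higher, and IGF2 (-1.01) and IGFBP6 (-0.60) stayed lower. INSR (-0.55, adjusted p = 0.0197) and IGF2R (-0.50, 0.000319) became called lower, IRS1 (0.07, 0.706) was no longer called, and the uncalled changes of IGF1R (-0.28) and IRS2 (-0.21) turned negative.

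**Figure D4:**
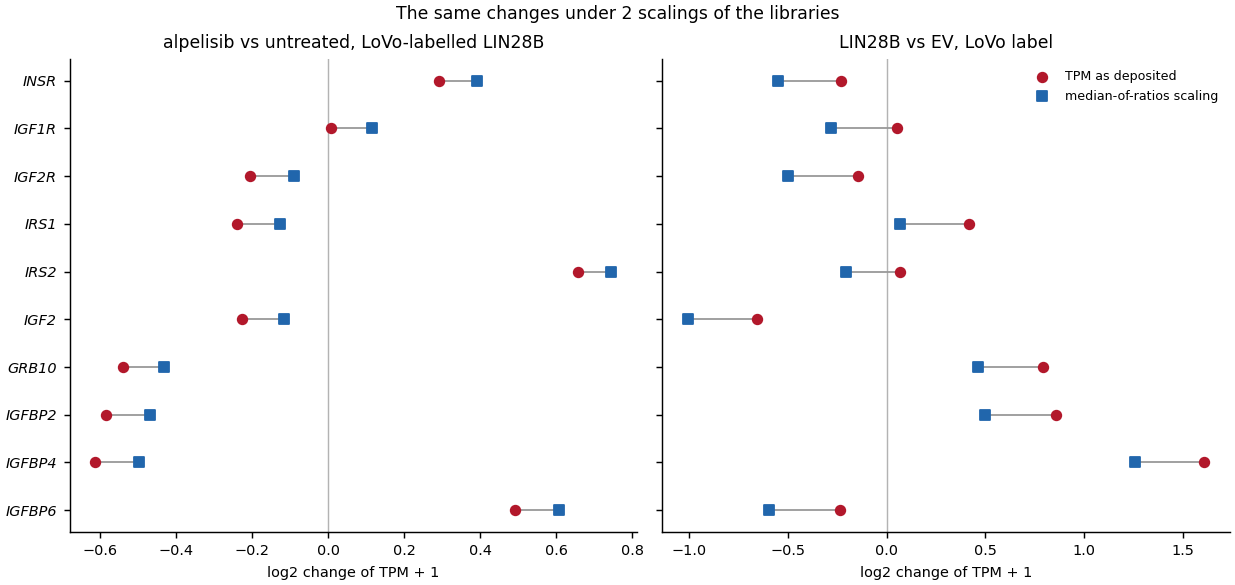
Log2 change of TPM + 1 for each gene on TPM as deposited (circles) and after median-of-ratios scaling (squares), for alpelisib versus untreated LoVo-labelled LIN28B cells and for LIN28B versus EV under the LoVo label; the 2 horizontal axes differ. The scaled points lie to the right in the first panel, with IRS2 at 0.74 against 0.66, and to the left in the second, with INSR at -0.55 against -0.23.

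LIN28B with alpelisib was also set against EV, a comparison that differs in both factors and shares its groups with those above. Under the LoVo label 6 of 10 genes were called, 4 higher and 2 lower, beside 46.8% of all genes, and in DLD-1 5 of 10, 1 higher and 4 lower, beside 29.9%. Under the scaling the split was 2 higher and 2 lower under the LoVo label and 3 higher and 3 lower in DLD-1, where INSR (0.57, adjusted p = 0.0301) and IGFBP6 (0.29, 0.00827) were called higher and the call of IGF2R ended (0.0519). IRS2 was higher in both, by a log2 change of 0.73 under the LoVo label (limma, adjusted p = 0.000503) and by 0.48 in DLD-1 (adjusted p = 0.0177). IGF2R was lower in both, with a log2 change of -0.35 under the LoVo label (limma, adjusted p = 0.0168) and -0.36 in DLD-1 (0.0209). IGFBP2 in DLD-1 measured 71.7 ± 4.17 TPM with both factors and 73.3 ± 1.45 TPM in EV, a log2 change of -0.03 with a 95% interval of -0.24 to 0.17. In DLD-1 IRS1 (log2 change -0.65, adjusted p = 0.00788) and GRB10 (-0.63, 0.00714) were lower, while IGFBP4 was lower in DLD-1 (-0.48, 0.0173) and higher under the LoVo label (1.00, 2.19e-05). Under the LoVo label IGF2 was lower (-0.89, 7.78e-05), and IGFBP2 (0.27, 0.0271) and IGFBP6 (0.25, 0.00585) were higher, 2 calls that the scaling ended (adjusted p = 0.842 for IGFBP2 and 0.942 for IGFBP6).

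Several of these calls rested on single libraries. In DLD-1, IRS2 was not called without alpelisib replicate 1 (adjusted p = 0.0857) or EV replicate 1 (0.0606), IGFBP4 without alpelisib replicate 1 (0.0949) or EV replicate 2 (0.0533), and IGF2R without alpelisib replicate 2 or 3 or EV replicate 2 or 3 (0.0606 to 0.0776). The count in DLD-1 was 3 of 10 without alpelisib replicate 1 or EV replicate 2, and INSR (0.47 log2, 0.0636) was called higher without alpelisib replicate 2 (0.62, 0.0326). Under the LoVo label, IGF2R was not called without alpelisib replicate 3 (0.0899) or EV replicate 3 (0.0824), and IGFBP2 without alpelisib replicate 1 or 3 or EV replicate 2 or 3 (0.0517 to 0.117).

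LoVo EV and DLD-1 EV differed in most of these genes at baseline. IGFBP6, the most abundant of the 10 in LoVo EV, averaged 109 ± 8.35 TPM in LoVo EV, against 47.0 ± 2.24 TPM in DLD-1 EV (SD, n = 3). IGF2 averaged 23.3 ± 5.11 TPM in LoVo EV, against 10.5 ± 0.872 TPM in DLD-1 EV. IRS1 was lower in LoVo EV, at 16.6 ± 3.74 TPM, against 37.7 ± 3.35 TPM in DLD-1 EV. So were IGFBP2, at 41.9 ± 1.42 TPM in LoVo EV and 73.3 ± 1.45 TPM in DLD-1 EV, and IGFBP4, at 14.7 ± 3.57 TPM in LoVo EV and 24.6 ± 1.23 TPM in DLD-1 EV. For each of these 5 genes the 2 EV groups did not overlap. The log2 difference was 1.19 for IGFBP6 (limma, adjusted p = 5.5e-10), 1.06 for IGF2 (1.01e-05), -1.15 for IRS1 (2.17e-05), -0.79 for IGFBP2 (2.88e-06) and -0.73 for IGFBP4 (0.000344). INSR was called higher (0.51, 0.0262) and GRB10 lower (-0.45, 0.0245) in LoVo EV. The INSR call ended without LoVo EV replicate 1 or 3 or DLD-1 EV replicate 1 or 3 (adjusted p = 0.0572 to 0.0973), and the GRB10 call without LoVo EV replicate 2 or DLD-1 EV replicate 1 or 2 (0.076 to 0.13) and under the scaling (0.362). In all, 7 of 10 genes were called, 3 higher and 4 lower, beside 55.5% of all genes. Under the scaling, which shifted the log2 changes of all genes by a median of 0.269, IGF1R (0.49, 0.00459) and IGF2R (0.46, 0.000671) were called higher as well. IGF1R was also called without DLD-1 EV replicate 2 (0.37, 0.0486), beside 0.21 with it (0.258). IRS2 averaged 2.88 ± 0.278 TPM in LoVo EV, against 2.71 ± 0.240 TPM in DLD-1 EV, a difference of 0.07 with an interval of -0.24 to 0.37.

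LIN28B cells under the LoVo label and in DLD-1 differed in 6 of these 10 genes, 4 higher and 2 lower, beside 14.0% of all genes. IGFBP6 measured 94.9, 90.6 and 90.0 TPM in LoVo-labelled LIN28B and 43.7, 44.3 and 46.7 TPM in DLD-1 LIN28B (1.02 log2, limma, adjusted p = 3.06e-08). IGFBP4 measured 44.4, 44.3 and 49.7 TPM in LoVo-labelled LIN28B and 22.8, 21.3 and 22.7 TPM in DLD-1 LIN28B (1.02, 9.97e-05). IGF2 (0.84, 0.000693) and IGF1R (0.81, 0.0015) were higher too, with IGF1R at 12.3, 10.3 and 10.1 TPM in LoVo-labelled LIN28B and 5.91, 5.74 and 5.69 TPM in DLD-1 LIN28B. None of these 4 genes overlapped between the groups. IRS1 (-0.57, 0.0309) and IGFBP2 (-0.37, 0.0154) were lower, and both calls depended on single libraries. IRS1 was not called without LoVo-labelled LIN28B replicate 1 or 2 or any 1 DLD-1 LIN28B replicate (adjusted p = 0.0506 to 0.113), and IGFBP2 not without LoVo-labelled LIN28B replicate 1 or 3 or DLD-1 LIN28B replicate 1 (0.0514 to 0.0759). GRB10 measured 11.9 ± 1.03 TPM in LoVo-labelled LIN28B and 12.5 ± 1.66 TPM in DLD-1 LIN28B, a difference of -0.06 with a 95% interval of -0.40 to 0.28, whereas the EV groups had 6.47 ± 0.458 TPM in LoVo and 9.39 ± 2.35 TPM in DLD-1.

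The difference of the LIN28B effect, under the LoVo label minus DLD-1, was tested in the same model. It called 3 of the 10 genes, all higher, beside 42.7% of all genes, and under median-of-ratios scaling 1 higher and 2 lower. IGFBP4 had a log2 change of 1.61 under the LoVo label and -0.14 in DLD-1, a difference of 1.75 ± 0.20 (limma, adjusted p = 4.2e-06). The differences for IGF1R (0.60, 0.0318) and IGFBP2 (0.42, 0.0178) were called as deposited and not under the scaling (IGF1R 0.30, adjusted p = 0.217, and IGFBP2 0.10, adjusted p = 0.606). It shifted the differences of all genes by a median of -0.289. The scaling called the differences for IGF2R (-0.42, adjusted p = 0.0192) and IGFBP6 (-0.50, 0.00137) lower, which as deposited were -0.10 (0.63) and -0.17 (0.162). The IGF1R call also ended without any of LoVo-labelled LIN28B replicate 1, LoVo EV replicate 1 or 2, DLD-1 LIN28B replicate 2 or 3 and DLD-1 EV replicate 1 or 2 (adjusted p = 0.0552 to 0.093). Without LoVo EV replicate 3, IRS1 (0.74, 0.0125) and IGF2 (-0.40, 0.0496) were called, a count of 5 of 10, and without DLD-1 EV replicate 3 GRB10 was (0.59, 0.0234).

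The binding proteins were then read as a family of 7, whose TPM were summed in each library. The sum was 223, 216 and 225 TPM with alpelisib, 257, 249.6 and 253 TPM in LIN28B and 203, 219 and 216 TPM in EV under the LoVo label. In DLD-1 it was 146, 143 and 149.8 TPM with alpelisib, 186, 174 and 177 TPM in LIN28B and 154, 153 and 159 TPM in EV. In both sets the alpelisib libraries had a lower sum than the untreated LIN28B libraries and a larger share of IGFBP6. That share was 56.1, 61.9 and 57.7% with alpelisib and 36.9, 36.3 and 35.6% untreated under the LoVo label, and 36.2, 37.8 and 35.2% with alpelisib and 23.5, 25.5 and 26.4% untreated in DLD-1. IGFBP3, the main IGF carrier in serum and no member of the 10, had a share of 3.51, 4.63 and 4.45% with alpelisib and 15.8, 11.4 and 15.9% untreated under the LoVo label, and 2.05, 2.53 and 2.03% with alpelisib and 6.55, 5.83 and 6.12% untreated in DLD-1. IGFBP3 fell with a log2 change of -1.86 ± 0.13 under the LoVo label (limma, adjusted p = 7.08e-08) and -1.51 ± 0.13 in DLD-1 (adjusted p = 1.31e-06), a larger change than that of any of the 10 genes. It measured 9.27 ± 1.26 TPM with alpelisib, 36.5 ± 6.94 TPM in LIN28B and 45.8 ± 0.995 TPM in EV under the LoVo label, and 3.22 ± 0.351 TPM with alpelisib, 11.0 ± 1.03 TPM in LIN28B and 9.32 ± 0.427 TPM in EV in DLD-1. IGFBP5 and IGFBP7 stayed below 2 TPM, and IGFBP1 was listed at 0 in 17 of 18 libraries.

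**Figure D5:**
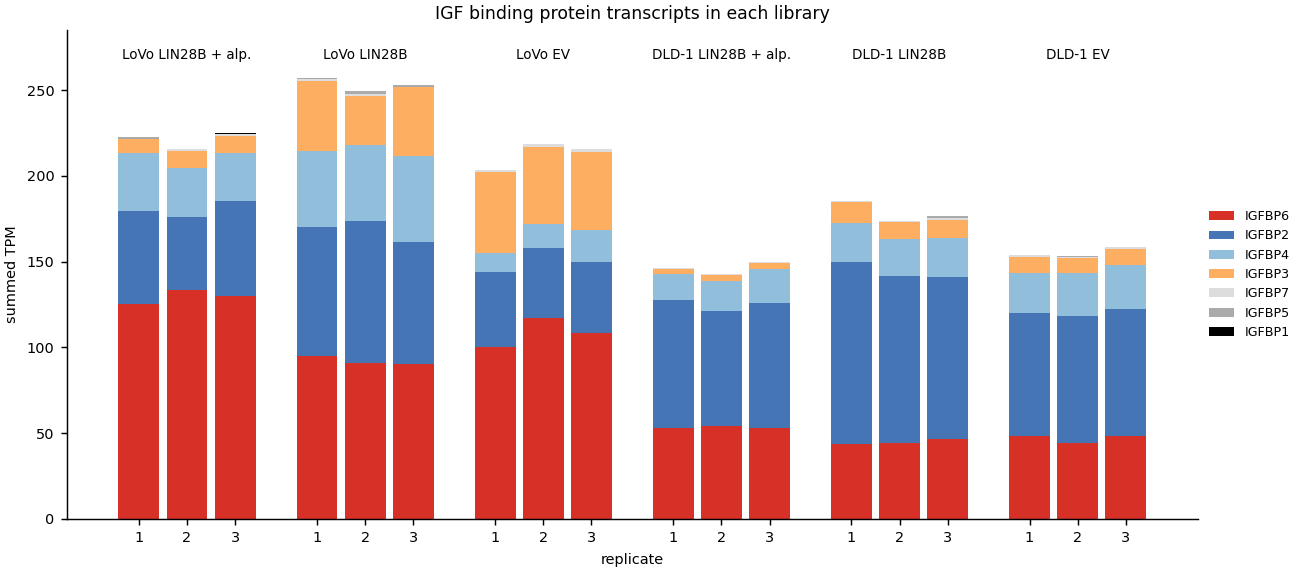
Stacked TPM of the 7 IGF binding protein genes in each of the 18 libraries, from a baseline of 0. IGFBP6 (red) made up 56.1, 61.9 and 57.7% of the stack in the LoVo-labelled alpelisib libraries and 36.9, 36.3 and 35.6% in the untreated ones, and IGFBP2 (dark blue) was the largest part in every DLD-1 library.

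Other genes of the pathway were counted in a list of 40, of which 33 were tested. This list and those below were chosen with earlier results of these data known. With alpelisib 3 were higher and 17 lower under the LoVo label, 60.6% of the list beside 39.7% of all genes, with a median log2 change of -0.46 beside -0.06 over all genes. In DLD-1 1 was higher and 16 lower, 51.5% of the list beside 31.0% of all genes, with a median of -0.42 beside -0.09. Under the scaling the counts were 6 and 14 under the LoVo label and 1 and 15 in DLD-1. The genes with the smallest p among those called included, in both sets, IGFBP3, TRIB3, FURIN and PCSK6. TRIB3, a pseudokinase that can bind AKT, averaged 77.2 ± 7.55 TPM with alpelisib, against 183 ± 14.8 TPM untreated, under the LoVo label, and 69.2 ± 4.77 TPM with alpelisib, against 161 ± 10.4 TPM untreated, in DLD-1. FURIN, a proprotein convertase that processes INSR and IGF1R, fell (-0.60 under the LoVo label and -0.57 in DLD-1), and PCSK6, another convertase, rose (0.82 under the LoVo label and 0.73 in DLD-1). CBL, a ubiquitin ligase, fell in both sets, with a change of -0.84 under the LoVo label (adjusted p = 0.000523) and -0.90 in DLD-1 (0.000617). SOCS1, which inhibits cytokine and insulin receptor signalling, rose under the LoVo label (1.38, 0.000255) and had a change of -0.27 in DLD-1 (0.413). The adaptors SHC1 and GRB2, which link receptors to RAS, fell in both sets. SHC1 had changes of -0.71 under the LoVo label (0.00213) and -0.87 in DLD-1 (0.000861), and GRB2 -0.86 under the LoVo label (0.00159) and -0.68 in DLD-1 (0.0109). IGF1, the other IGF ligand, stayed at or below 2.17 TPM in every library and was called higher with alpelisib under the LoVo label (0.82 log2, 0.0277) although the groups overlapped. SOCS2 was not called, at 0.42 under the LoVo label (0.0884) and 0.22 in DLD-1 (0.42).

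The PI3K subunits and FOXO factors gave the next steps of the pathway. The PI3K list held 15 genes, of which 11 were tested. It held PI3K subunits and PIK3IP1, which inhibits PI3K and is not a subunit. With alpelisib 0 were higher and 5 lower under the LoVo label and 0 higher and 4 lower in DLD-1. These were 45.5% of the tested genes of this list beside 39.7% of all genes under the LoVo label. In DLD-1 they were 36.4% beside 31.0%, and both shares were near those over all genes. PIK3CA, the target of alpelisib, measured 12.1 ± 1.42 TPM with alpelisib and 15.0 ± 0.623 TPM untreated under the LoVo label (adjusted p = 0.129), and 10.5 ± 1.20 TPM with alpelisib and 11.7 ± 1.10 TPM untreated in DLD-1 (0.496). PIK3CB, the beta catalytic subunit, fell with a log2 change of -0.62 under the LoVo label (limma, adjusted p = 0.00338) and -0.90 in DLD-1 (0.000379), and PIK3R1, a regulatory subunit, with -0.90 under the LoVo label (0.000393) and -0.99 in DLD-1 (0.000354). Of 4 FOXO factors 2 fell under the LoVo label, beside 39.7% of all genes called, and 1 in DLD-1, beside 31.0%. FOXO3 fell in both, with -0.44 log2 (0.00357) under the LoVo label and -0.56 (0.0011) in DLD-1, and FOXO1 fell under the LoVo label (-0.55, 0.00477) and had -0.33 in DLD-1 (0.0821).

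With LIN28B against EV the same lists were counted in each set, and differences between the sets were not tested for the lists. In DLD-1 1 of the 33 pathway genes was higher and 1 lower, SH2B3, an adaptor, at 0.57 log2 (limma, adjusted p = 0.0298) and PTPRF, a receptor phosphatase, at -0.40 (0.0484), and no PI3K subunit or FOXO factor was called, beside 2.53% of all genes. Under the LoVo label 56.8% of all genes were called, 7463 higher and 3067 lower, and 4882 higher and 5083 lower under the scaling. Of the pathway genes 19 were higher and 8 lower there, 13 and 10 under the scaling, with TRIB3 at 3.29, GAB1, a docking adaptor, at 2.24, PTPRF at 1.66, IDE, the insulin-degrading enzyme, at 1.15, STC2, a secreted inhibitor of PAPPA, at -3.61 and SOCS3 at -1.96. The adaptors SHC1 (0.84) and GRB2 (1.17) and the feedback gene SOCS2 (1.21) were higher, IGFBP3 (-0.33, adjusted p = 0.0396) and IGF1 (-0.68, 0.0482) were lower. Of the PI3K list 6 were higher and 2 lower, 5 and 3 under the scaling, with PIK3CA at 1.09, PIK3R1 at 1.16 and PIK3CB at 0.64. PIK3IP1, in that list but not a subunit, averaged 3.25 TPM in LoVo-labelled LIN28B and 11.0 TPM in LoVo EV. Of the FOXO factors 3 of 4 were higher, none of them under the scaling. STC2 measured 0.138, 0.278 and 0.150 TPM in LoVo-labelled LIN28B and 11.9, 14.3 and 14.3 TPM in LoVo EV, and stayed at or below 0.259 TPM in every DLD-1 library. In DLD-1 IGFBP3 had a change of 0.22, SHC1 -0.28, GRB2 -0.03, SOCS2 -0.09, IGF1 0.53, PIK3CA -0.01, PIK3CB -0.11, PIK3R1 0.04, FOXO1 0.13 and FOXO3 -0.22, none of them called.

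The order of the 6 groups was taken from the group means. IRS2 was highest in the alpelisib groups, LoVo-labelled (5.46 ± 0.894 TPM) before DLD-1 (4.20 ± 0.551 TPM), which overlapped each other and not the next group. IGFBP6 ran from LoVo-labelled LIN28B with alpelisib (129 ± 4.28 TPM) through LoVo EV, LoVo-labelled LIN28B, then DLD-1 LIN28B with alpelisib, to DLD-1 EV and DLD-1 LIN28B (44.9 ± 1.59 TPM), and only the last 2 overlapped. IGFBP4 was highest in LoVo-labelled LIN28B and lowest in LoVo EV, and only its lowest groups, DLD-1 LIN28B with alpelisib and LoVo EV, overlapped. IGF1R and INSR showed no such steps. Each INSR group overlapped the next in the order, and for IGF1R only DLD-1 LIN28B, the lowest, stood apart from its neighbour.

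The genes whose centred group means lay closest to those of IRS2, among 13940 named genes that reached a mean of 2 TPM in at least 1 group, were PLD2, PNPLA7 and FOXN3-AS1. Their root mean square distance over the 6 group means of log2(TPM + 1) was 0.0377, 0.0491 and 0.0497, beside 0.318 for the spread of IRS2 itself. For INSR (own spread 0.22) they were VIRMA (0.0361), RPL29P4 (0.0387) and SKI (0.0413), and the value of RPL29P4, a pseudogene, is uncertain because it can share reads with its parent gene. For IGF1R (own spread 0.296) they were DRC3 (0.0491), TRIM52-AS1 (0.0757) and SSPOP (0.101), and the counts of the antisense gene depend on strand. Closeness here is a description over 6 group means.

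Over the 10 comparisons 45 calls were made among these genes, and 23 of them held under every alternative that gave a value. With alpelisib these were IRS2, IGFBP2, IGFBP4 and IGFBP6 under the LoVo label and IRS2, GRB10 and IGFBP2 in DLD-1. For LIN28B against EV they were GRB10, IGFBP2 and IGFBP4 under the LoVo label and none in DLD-1.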

How the data were processed

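The deposited values were TPM, 1 per gene and library, made by the authors, per the file headers. Build and tools are named without role or sequence in the submitters' processing notes, as hg38, STAR 2.7.10, Picard, HTSeq and DESeq2. Annotation release, gene lengths and the use of strand are not given in the sources used here. Since TPM keeps no depth, the depth is unknown and no counting interval is given, and because TPM has a fixed total a gain in abundant transcripts lowers all other values. Of 61806 genes, 61757 were matched to a symbol, and no 2 libraries were identical.

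Tests used limma 3.58.1 in R 4.3.3 on log2(TPM + 1), a scale that understates changes of low genes, over 18537 genes with 1 TPM or more in at least 3 libraries. A single model held the 6 groups (12 residual degrees of freedom), and 10 comparisons were read from it. In each comparison the two-sided p of all genes tested were adjusted after Benjamini and Hochberg, and called means an adjusted p under 0.05. The intervals are 95% intervals of the log2 change, unadjusted. Groups overlapped where the ranges of their libraries did.

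The alternatives were median-of-ratios scaling over 16987 genes, pseudocounts of 0.1 and 0.5, no filter (35621 genes), a filter at 5 TPM (12525 genes), a fit of only the groups compared, no mean-variance trend, a replicate block and leaving out each library. The model was run on simulated data with independent noise and changed genes in a single group. That setting differs from these data, so its outcome is not used here. The 10 genes and all lists were chosen with earlier results of these data known. Named were the 10 genes, of the pathway list the 6 with the smallest p among those called in each alpelisib and each LIN28B comparison, a fixed set (IGFBP1, IGFBP3, IGF1, SHC1, GRB2, STC2, SOCS2, PIK3CA, PIK3CB, PIK3R1, FOXO1 and FOXO3), LIN28B, and the 3 genes closest in pattern to IRS2, INSR and IGF1R. IGFBP5 and IGFBP7 are named as the rest of their family. Some items that these rules select are not reported here. Sequences came from RefSeq tables (GRCh38.p14) and from the GRCh38 genome with GENCODE 29, which also gave the gene coordinates.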

Additional observations from a re-analysis of the deposited data

Results flagged for a closer look

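For 3 genes the effect of LIN28B against EV differed between the sets in a test of the difference itself, as the effect under the LoVo label minus that in DLD-1. IGFBP4 had log2 changes of 1.61 under the LoVo label and -0.14 in DLD-1, a difference of 1.75 (limma, adjusted p = 4.2e-06), with values between 1.41 and 1.92 and adjusted p of 8.05e-05 or less over its 21 alternatives. IGF1R had 0.05 under the LoVo label and -0.55 in DLD-1, a difference of 0.60 (adjusted p = 0.0318, 0.00361 to 0.296 over the alternatives). IGFBP2 had 0.86 under the LoVo label and 0.43 in DLD-1, a difference of 0.42 (adjusted p = 0.0178, 0.00911 to 0.606 over the alternatives). All 3 differences use the LoVo EV libraries, whose labels put them in the same line as LIN28B libraries that resembled DLD-1 more closely, so a difference of line and an effect of LIN28B cannot be told apart here.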

How the results depend on the processing

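Of 1580 values of the 10 genes under the alternatives, 1419 kept direction and call, 99 lost the call, 29 gained one, 33 uncalled values changed sign and 0 called values reversed. The pseudocounts changed no call, and the filter at 5 TPM, which gave no value for IRS2, ended none. For LIN28B against EV in DLD-1 the count of called genes was 2 under median-of-ratios scaling, 0 with the replicate block, 2 in a fit of only the 9 DLD-1 libraries (added after seeing the data) and 0 to 1 with single libraries left out, beside 1 as reported. With single libraries left out it was 3 to 5 for alpelisib in DLD-1 (6 as reported), 3 to 5 for LIN28B with alpelisib against EV in DLD-1 (5 as reported) and 2 to 5 for the difference of the LIN28B effect (3 as reported). It was 3 when the fit held no other groups for LIN28B with alpelisib against EV under the LoVo label (6 as reported), where IGF2R (0.116), IGFBP2 (0.141) and IGFBP6 (0.0751) had the adjusted p given. It was 1 for the difference of the LIN28B effect without LoVo EV replicates 1 and 2 together (added after seeing the data). The cause of these changes was not tested. When the fit held only the groups of the comparison, IGFBP6 for LIN28B against EV under the LoVo label (0.0605), GRB10 for LIN28B with alpelisib against EV in DLD-1 (0.0514) and GRB10 between the EV groups (0.0956) were not called (adjusted p in brackets). IGFBP4 between the EV groups was not called without LoVo EV replicates 1 and 2 (-0.39 log2, 0.0581).

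Replicate numbers did not pair the samples. Over 18 pairs of libraries with the same number in a line, the correlation of deviations from the group means was -0.302 to 0.119, above 0.1 in 1 pair. The block changed 8 calls of the 10 genes, all lost. TPM without depth and 3 libraries a group limit what could be seen, most of all for low genes such as IRS2 and INSR.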

Other observations

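The balance of the 2 receptor kinases was read as the ratio of IGF1R to INSR TPM in each library. Under the LoVo label it was 1.55, 1.60 and 1.15 with alpelisib, 1.72, 2.13 and 1.55 in LIN28B and 1.19, 1.60 and 1.51 in EV. In DLD-1 it was 0.703, 1.43 and 1.24 with alpelisib, 1.23, 1.04 and 1.11 in LIN28B and 2.17, 2.03 and 1.40 in EV. In DLD-1 every LIN28B library was below every EV library, and the alpelisib libraries spread over both, with replicate 1, the library with the highest INSR, at the lowest ratio. IGF1R was the higher of the pair in every library but that one.

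The 10 genes together made up 326, 318 and 308 TPM with alpelisib, 339.8, 330.0 and 330.3 TPM in LIN28B and 271, 291 and 302 TPM in EV under the LoVo label. In DLD-1 the sum was 240.3, 235 and 239.8 TPM with alpelisib, 286, 275 and 283 TPM in LIN28B and 264, 275 and 267 TPM in EV. The sum was lower in every alpelisib library than in every untreated LIN28B library of the same set, in both sets.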
